A study of Mus musculus with 50 samples.

Results

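The wild-type X chromosome pair was read allele by allele in mouse embryonic stem (ES) cells that carry one X from CAST/Ei and one from 129/Sv/Jae. In each of 2 libraries, the reads that poly(A) RNA-seq gave to the 129 copy of a gene were set against those given to its CAST copy. Members were all genes listed on the X chromosome, 1063 of 24391 genes. Of these, 711 had at least 1 read in wild type, and 296 had at least 20 allelic reads (129 plus CAST) in each library and are called measured here. The other 767 comprised 352 without any read and 415 with fewer allelic reads than that in a library, among them 132 with reads but none assigned to an allele.

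The wild-type ES cells had spent 3 days on irradiated embryonic fibroblast feeders, were freed of them, and were then differentiated for 4 days in suspension as embryoid bodies and 10 days on gelatin-coated plates. Used beside them were ES cells of the same cross and differentiation with a Repeat B deletion on 1 or both alleles of Xist (RepB+/- and RepB-/-, 2 libraries each) and 1 library of wild-type mouse embryonic fibroblasts (MEF), whose labels give the same cross. The series has 50 samples, of which these and 1 other MEF library, 8 in all, have tables analysed here. The labels do not say whether the replicates are separate cultures, so spreads and p-values describe these libraries and may be technical. They name no clone, and give no reason why the 129 chromosome should be the inactive one.

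In female mammals one of the X chromosomes is silenced in each cell, so that both sexes express X-linked genes at similar dosage. The long non-coding RNA Xist is transcribed from the chromosome to be silenced, spreads over it and recruits silencing factors, including Polycomb complexes, which modify histones. Some genes, termed escape genes, stay partly active on the silenced chromosome, and their products therefore come from both alleles.

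The 2 wild-type libraries held 19676395 and 12505962 counts, of which 27.0% and 26.9% were assigned to an allele. X-linked genes gave 15588 and 9736 reads from 129 and 92478 and 56217 from CAST. Chromosome 13, which carried both alleles, had a median 129 share of 50.8% and 50.5% over 358 genes, and the share was over 80% in 9 of them (2.51%) and under 20% in 1 (0.279%). On 12 autosomes the cells showed almost only 129 reads (medians over their genes 99.5% and 99.7%), and no chromosome carried CAST alone, so the rate at which CAST reads are wrongly given to 129 has no direct control. The cultures held several cell types. The 10 fibroblast and matrix markers summed to 20819 and 24958 CPM (counts scaled to the size of the library), the 10 pluripotency markers to 240 and 279, the 6 cardiac markers to 461 and 485, the 6 endoderm markers to 355 and 334 and the 6 neural markers to 120 and 111. Every marker was above 1 CPM except 1 neural marker. The ES label names the starting cells: collagen genes were among the marker lists' highest, while Pou5f1 and Nanog, which define pluripotent cells, were at 31.6 and 36.8 CPM and at 25.1 and 29.0 CPM. The strain of the feeders is not given, and the part of any left-over feeder cells in the allelic reads was not tested. In such bulk RNA, a few cells with an active 129 gene and many cells with a weakly active one cannot be told apart.

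Xist itself marked the silenced chromosome. It had 5363 reads from 129 and 61 from CAST in replicate 1 (98.9% from 129), and 3324 and 48 in replicate 2 (98.6%). Nearly all Xist RNA of both libraries thus came from the 129 chromosome. Xist alone gave 34.4% and 34.1% of all X-linked 129 reads. It is left out of the medians that follow.

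Most X genes were expressed almost wholly from CAST. Over the 295 other measured genes the median 129 share was 4.96% in replicate 1 and 6.02% in replicate 2 (5.49% ± 0.743, SD, n = 2), and the middle 50% of genes lay between 2.27% and 9.98% and between 2.63% and 11.5%. The share exceeded 10% for 73 and 85 genes and 50% for 9 and 10 genes. Reads summed over all X genes but Xist, where deeply read genes weigh more, gave 9.96% and 10.2%. In the edgeR quasi-likelihood test of 129 against CAST reads, with the alleles paired within libraries, 281 of the 296 X genes were called lower from 129, at a Benjamini-Hochberg threshold of 0.05. The same test called 9% of all 10382 genes lower and 68.4% higher, with 129 alone on most autosomes. The median log2 ratio of 129 to CAST was −4.14 on the X and 0.02 on chromosome 13.

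The 8 X genes called higher from 129 were Xist, Slc25a5, Rpl39, Rps4x, Cox7b, Ngfrap1, Rbbp7 and Gemin8. For 7 genes the ratio of the alleles was not called in either direction: Plp2, Rbm10, Lage3, Fnd3c2, Armcx3, Arxes1 and Rab9. All 15 belong to the genes described next.

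**Figure D1:**
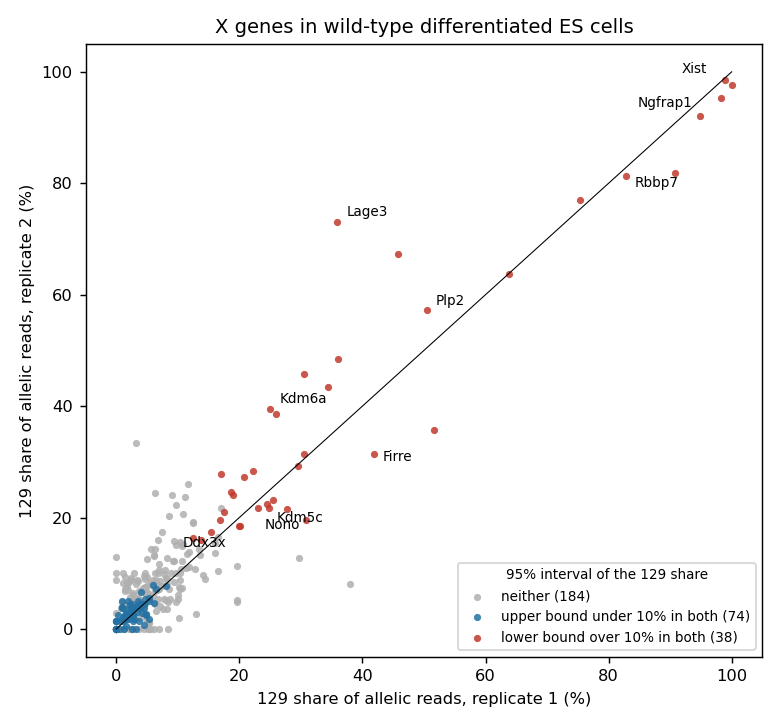
Share of allelic reads from 129 (%) in wild-type ES replicate 1 (x axis) and replicate 2 (y axis), with 1 point per measured X gene. Red points are the 38 genes whose 95% interval lies over 10% in both libraries, blue points the 74 whose interval lies under 10% in both, grey points the other 184, and the line marks equal shares. Most genes sit below 10% in both libraries, and few lie far from the line, Lage3 among them.

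To sort the genes, each share was given an exact 95% Clopper-Pearson interval, which covers counting error only. A gene was called retained where the lower bound was over 10% in both libraries and low where the upper bound was under 10% in both. This gave 38 retained genes (Xist included), 74 low genes and 184 that met neither rule. Over all genes tested 96.7% met the retained rule and 0.732% the low one (98.9% and 0% on chromosome 13). Each library alone gave 46 retained genes, and 38 were shared. It gave 146 low genes in the deeper replicate 1 and 87 in replicate 2, with 74 shared. One gene, Sh3kbp1, was low in replicate 1 (3 of 96 reads from 129) and retained in replicate 2 (20 of 60); it was picked out after its values were seen.

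The shares of the 295 genes in replicate 1 and 2 had a Spearman correlation of 0.75 over genes, and of 0.81 over the 142 genes with at least 100 allelic reads in each library. Genes are not independent replicates, and these values only describe how alike the libraries were. Mean share and allelic depth had a Spearman correlation of 0.07, whereas class did follow depth: the low genes had a median of 321.5 and 200.5 allelic reads in the 2 libraries and the undetermined ones 120.5 and 62.5. A gene without any 129 read needed at least 36 reads for its upper bound to fall under 10%. The genes closest to the 10% mark by mean share included Jade3 (10.4% and 9.97%) and Chic1 (8.20% and 12.8%) above it, and Hsd17b10 (9.77% and 10%), Taz (6.17% and 13.3%) and Smim10l2a (6.06% and 13%) below it. These 5 were undetermined.

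The 37 retained genes other than Xist ran from partial to nearly full 129 expression. The mean share was between 10% and 20% for 7, between 20% and 50% for 20, and over 50% for 10, of which 8 were over 50% in both libraries. Kdm5c, Ogt and Kdm6a are the chromatin regulators among the partly expressed genes. Kdm5c, a histone H3 lysine 4 demethylase known as an escape gene, had 254 reads from 129 and 780 from CAST in replicate 1 (24.6%) and 137 and 474 in replicate 2 (22.4%). Ogt, which attaches O-linked N-acetylglucosamine to nuclear and cytosolic proteins, had 269 and 703 (27.7%) and then 113 and 413 (21.5%). Both libraries lay well over the 10% mark for each gene, and for Ogt replicate 2 was the lower. Kdm6a, a histone H3 lysine 27 demethylase, had shares of 25% and 39.5% from only 84 and 43 allelic reads.

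RNA-binding genes held similar values. Nono, a paraspeckle protein, had 341 reads from 129 and 1141 from CAST (23%) and then 216 and 776 (21.8%). Ddx3x, an RNA helicase with a Y-linked partner, had 113 and 447 (20.2%) and then 68 and 299 (18.5%). Utp14a, a ribosome biogenesis factor, had 54 and 164 (24.8%) and then 32 and 116 (21.6%), and Dkc1, the pseudouridine synthase dyskerin, 58 and 165 (26.0%) and then 51 and 81 (38.6%). The libraries were close for the first 3 genes and farther apart for Dkc1. Rbmx2 stood at 30.8% and 19.6%.

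Firre, a long non-coding RNA, had 120 reads from 129 and 167 from CAST (41.8%) and then 71 and 155 (31.4%). Alg13, part of the enzyme that starts N-linked sugar chains, had 59 and 173 (25.4%) and then 41 and 136 (23.2%). Uba1, the main ubiquitin-activating enzyme, was deeply read and lay near the lower end at 13.7% and 16%, and so did Dusp9, a phosphatase of MAP kinases, at 15.3% and 17.3%, and Ndufb11, a subunit of respiratory complex I, at 12.5% and 16.3%. The other partial genes included Naa10 (30.4% and 31.4%), Apex2 (29.5% and 29.3%), Pbdc1 (22.1% and 28.3%), Atp6ap2 (17.0% and 27.9%), 1810030O07Rik (20.8% and 27.3%), Wbp5 (19% and 24.1%), Tro (18.6% and 24.6%), Tceal3 (16.9% and 19.5%), Prrg3 (17.4% and 21.0%), Armcx3 (30.4% and 45.8%), Arxes1 (34.4% and 43.5%), Fnd3c2 (36.0% and 48.4%) and Rab9 (51.6% and 35.7%).

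At the other end, several genes were read mostly from 129. Rps4x, a ribosomal protein of the small subunit, had 1041 reads from 129 and 106 from CAST (90.8%) and then 448 and 99 (81.9%). Rbbp7, a histone-binding protein of several chromatin complexes, had 709 and 147 (82.8%) and then 417 and 96 (81.3%). Ngfrap1 had 343 and 0 (100%) and then 199 and 5 (97.5%). In each of these genes and libraries 129 reads outnumbered CAST reads.

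Slc25a5, a mitochondrial ADP/ATP carrier, had 182 and 103 (63.9%) and then 95 and 54 (63.8%), and Plp2, a membrane protein, 489 and 480 (50.5%) and then 363 and 271 (57.3%). The others of mean share over 50% were Rpl39 (98.3% and 95.2%), Cox7b (94.9% and 92.0%), Gemin8 (75.4% and 76.9%), Rbm10 (45.7% and 67.3%) and Lage3 (35.9% and 73.1%). All 10 genes of mean share over 50% also had 129 shares over 60% in both RepB-/- libraries, where the X as a whole was at 35.5% and 34.1%. In MEF, too, Ngfrap1 (100%), Rps4x (89.2%), Rbbp7 (80.6%), Slc25a5 (60.3%) and Plp2 (60.5%) were high. The gene table of RefSeq lists 1 pseudogene each for Slc25a5, Rpl39 and Rps4x on an autosome. It also lists 1 on chromosome 2 for Rbmx2, a retained gene that is not among the 10. Whether allele assignment or reads of such copies raise these shares was not tested, and without the 10 genes and Xist 27 retained genes were left.

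**Figure D2:**
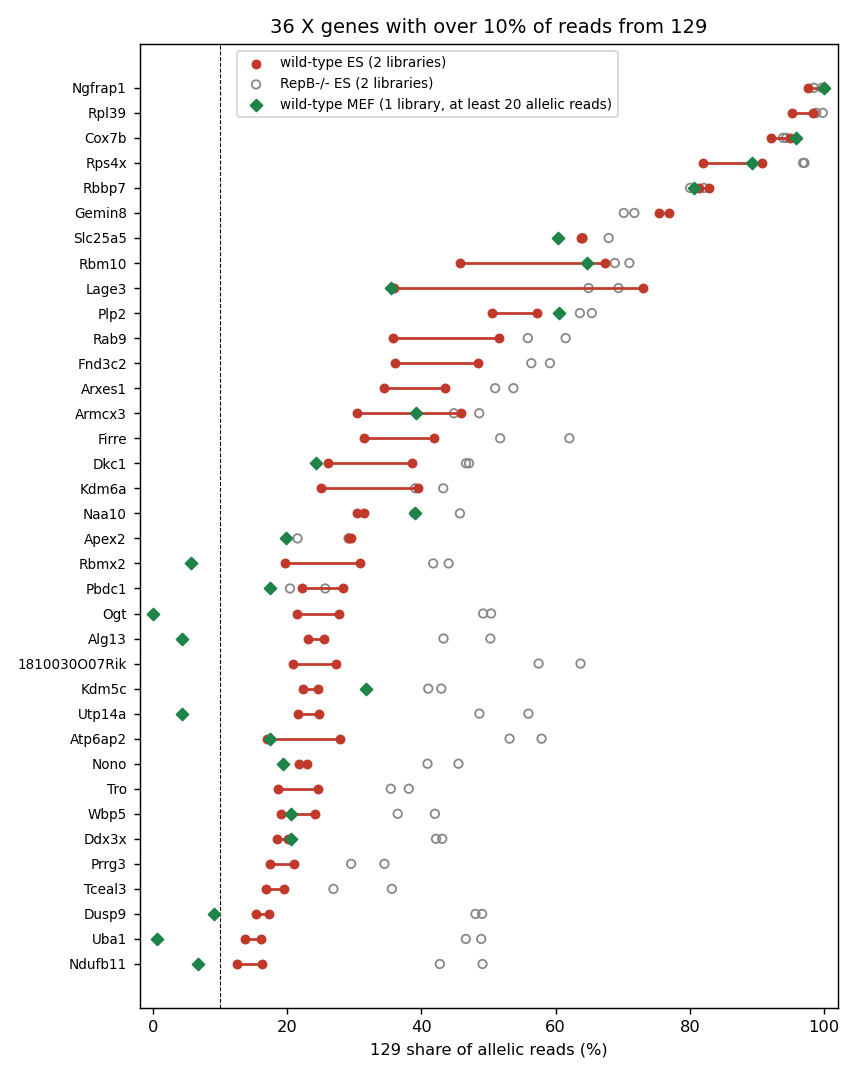
Share of allelic reads from 129 (%, x axis) for 36 retained genes (y axis, ordered by mean share). Red points joined by a line are the 2 wild-type ES libraries, open circles the 2 RepB-/- libraries, green diamonds the wild-type MEF library where it had at least 20 allelic reads, and the dashed line is the 10% mark. The upper genes hold high shares in every sample, while Ogt, Uba1, Ndufb11 and others have MEF values left of the mark.

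In RepB-/- cells both libraries were above both wild-type libraries for 277 of the 295 X genes and for 74 of the 74 low genes, but for 28 of the 37 retained ones. The 9 exceptions were Kdm6a, Lage3, Pbdc1, Cox7b, Armcx3, Ngfrap1, Apex2, Rbbp7 and Gemin8. Pbdc1 stood at 25.7% and 20.4% in RepB-/- and Apex2 at 29.1% and 21.5%, within or below their wild-type shares. Genes such as Ogt (50.4% and 49.2%), Uba1 (48.9% and 46.6%) and Dusp9 (48.0% and 49.0%) had far higher shares in RepB-/- than in wild type. Whether retained genes differ from others in this respect was not tested, since their wild-type shares chose them.

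Genes without 129 reads formed the opposite end. In replicate 1 there were 23 and in replicate 2 33 genes with 0 reads from 129, and 16 had none in either (background 0.164% of genes tested, 0% on chromosome 13). Pgk1, a glycolytic enzyme whose silencing has long served as a test of X inactivation, had 196 and 232 reads from CAST, so that a 129 share of up to 1.53% and 1.29% is allowed by the counts (3 reads of the total). S100g, a calcium-binding protein, had 125 and 59 CAST reads, 1600014K23Rik 112 and 64, Cited1, a transcriptional co-regulator, 111 and 36, Arhgap6, a GTPase-activating protein, 93 and 43, and Armcx6 78 and 35. The first 5 are also low by their intervals. Their allowed shares, by the limit of 3 reads, lay between 1.29% and 8.33%, somewhat under the upper bounds of the intervals. The other 11 of the 16 genes had too few reads in a library to be low. Pgk1 had only 1.68% and 2.68% from 129 in RepB-/- too, and it was 1 of 3 such genes under 5% in both RepB-/- libraries. RefSeq lists 2 autosomal pseudogenes of Pgk1, and whether its 129 reads are counted as fully as its CAST reads was not tested. S100g, Cited1 and Arhgap6 had between 4.65% and 27.8% from 129 in the RepB-/- libraries.

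Low genes with many reads were not at 0. Flna, which crosslinks actin filaments, had the most allelic reads, with 453 from 129 and 8169 from CAST (5.25%) and then 343 and 5817 (5.57%). Its intervals, 4.79% to 5.75% and 5.01% to 6.17%, lie under 10%. Any 129 read puts a lower bound over 0, and the rate of CAST reads wrongly given to 129 has no direct control. Itm2a, a membrane protein, had 13 and 1891 (0.683%) and then 15 and 1033 (1.43%), the lowest shares among the 12 low genes of most reads. Col4a6, a basement membrane collagen chain, had 19 and 1289 (1.45%) and then 13 and 738 (1.73%). Both libraries of Itm2a and Col4a6 lay below both of Flna.

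Bgn, a small matrix proteoglycan, had 27 and 1459 (1.82%) and then 24 and 953 (2.46%), and Msn, which links actin to the membrane, 41 and 1580 (2.53%) and then 24 and 912 (2.56%). The MAGE family members Maged2 (2.24% and 2.56%) and Maged1 (2.68% and 3.78%), the kinase Nrk (3.67% and 3.71%), Lamp2, a lysosomal membrane protein (2.51% and 4.51%), the deubiquitinase Usp11 (4.40% and 4.46%), the tubulin deacetylase Hdac6 (4.03% and 6.62%) and the glypican Gpc3 (5.93% and 7.82%) completed the 12. Of the 12, Itm2a, Col4a6 and Bgn had the lowest mean shares and Gpc3 the highest. Xist had 61 of 5424 and 48 of 3372 reads from CAST, and the part of cells with Xist on the CAST chromosome in these low shares was not tested.

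Promoter sequences of RefSeq (build GRCm38.p6, 250 bases before to 50 after the start) were matched to 258 of the 296 measured genes. They were searched on both strands for AANATGGC and for ATGGCGG, cores bound by YY1, a factor known to tether Xist RNA; the 2 patterns can overlap, and both were chosen after promoters had been looked at. AANATGGC was in 6.96% of all 27025 gene entries and in 12.8% of the measured X genes. It was in 5 of 32 retained genes (15.6%), Xist itself among the 5, and in 8 of 67 low ones (11.9%). ATGGCGG was in 4.69% of all entries, in 11.2% of the measured X genes, and in 15.6% of retained and 7.46% of low genes. The median number of CpG was 18 and 17 in these 2 classes and 8 over all entries. Promoters of 4 genes with deep values are shown, 3 retained and then 1 low, with matches in capitals.
Kdm5c, chrX:152232977-152233276, plus strand: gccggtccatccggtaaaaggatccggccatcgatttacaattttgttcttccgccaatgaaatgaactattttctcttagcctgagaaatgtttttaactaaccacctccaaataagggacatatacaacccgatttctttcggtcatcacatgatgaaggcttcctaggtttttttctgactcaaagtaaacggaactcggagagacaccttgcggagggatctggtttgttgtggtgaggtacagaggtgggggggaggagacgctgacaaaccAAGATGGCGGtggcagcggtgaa
Nono, chrX:101429401-101429700, plus strand: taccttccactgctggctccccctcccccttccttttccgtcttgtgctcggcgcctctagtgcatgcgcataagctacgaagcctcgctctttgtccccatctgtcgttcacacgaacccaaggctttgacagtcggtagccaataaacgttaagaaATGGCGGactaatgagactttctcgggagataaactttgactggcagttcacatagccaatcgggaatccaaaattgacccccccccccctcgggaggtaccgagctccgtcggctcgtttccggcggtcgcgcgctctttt
Ddx3x, chrX:13280772-13281071, plus strand: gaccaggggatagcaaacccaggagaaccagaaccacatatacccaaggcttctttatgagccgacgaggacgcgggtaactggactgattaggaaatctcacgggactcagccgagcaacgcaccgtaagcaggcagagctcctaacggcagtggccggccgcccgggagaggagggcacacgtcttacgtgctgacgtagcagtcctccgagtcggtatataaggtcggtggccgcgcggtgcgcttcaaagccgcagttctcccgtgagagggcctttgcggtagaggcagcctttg
Flna, chrX:74246485-74246784, minus strand: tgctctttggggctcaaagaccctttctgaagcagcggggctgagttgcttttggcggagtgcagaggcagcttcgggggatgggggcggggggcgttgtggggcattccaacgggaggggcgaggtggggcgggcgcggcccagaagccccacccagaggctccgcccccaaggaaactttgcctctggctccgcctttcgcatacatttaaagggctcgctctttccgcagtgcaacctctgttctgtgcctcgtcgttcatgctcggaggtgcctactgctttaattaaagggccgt
The Kdm5c window holds overlapping matches of both patterns that begin 28 bases after the start, and that of Nono a match of ATGGCGG 92 bases before it. Those of Ddx3x, retained at 20.2% and 18.5%, and of Flna, low at 5.25% and 5.57%, hold neither. The low genes Phf8 and Idh3g, whose promoters are not shown, hold both patterns.

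The differences among X genes were tested against the chromosome's own middle gene, with each 129 count offset by the median log ratio of its chromosome in that library. In this edgeR test 70 of 296 X genes were higher (background 19.6% of all genes, 7.82% of chromosome 13) and 44 were lower (20.2% and 3.63%). Itm2a was lower by a log2 difference of −2.67 ± 0.23 (SE; edgeR adjusted p = 1.33e-30), Col4a6 by −1.97 ± 0.23 (2.23e-16), Bgn by −1.55 ± 0.20 (2.25e-14), Maged2 by −1.36 ± 0.17 (6.00e-15) and Msn by −1.25 ± 0.19 (4.56e-10). Flna was not called against the middle gene (−0.14 ± 0.12, adjusted p = 0.357), and nor was Gpc3 (0.21 ± 0.15, adjusted p = 0.287). Kdm5c was higher by 2.29 ± 0.18 (edgeR adjusted p = 3.30e-36), Nono by 2.20 ± 0.16 (5.21e-42), Ddx3x by 1.94 ± 0.21 (4.71e-20), and Uba1 by 1.46 ± 0.15 (1.07e-20).

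Among undetermined genes 31 were called higher than the middle gene and 2 lower. They include Usp9x, a deubiquitinase with a Y-linked partner (9.39% and 12.2%; 0.92 ± 0.18), Xiap, an inhibitor of caspases (13.6% and 13.3%; 1.31 ± 0.27), Eif1ax, a translation initiation factor (14.4% and 8.97%; 1.14 ± 0.23), and Hprt, of purine salvage (16.5% and 10.4%; 1.47 ± 0.47). Each lay closer to 10% than the retained Kdm5c, Nono and Ddx3x did, which follows in part from the rule that sets the classes. Without replicate 1 the counts fell to 45 higher and 27 lower. Centred at the chromosome's summed reads, which moves the median X gene from −0.15 to −1.61, 31 genes were higher and 196 lower. This centre, here and for the lists below, includes Xist, which gave 34.4% and 34.1% of all X-linked 129 reads. It thus lies above the pooled share without Xist given earlier.

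Genes were also grouped by function, beside 12.8% retained and 25% low over all measured X genes. The matrix, cytoskeleton and adhesion genes had the lowest medians of the 10 lists described here. Of 18 measured, none was retained and 13 were low, with list medians of 2.17% and 2.53% and no gene over 7.25% in replicate 1 or 8.43% in replicate 2. Against the chromosome's middle gene 11 were lower and none higher (all 295 genes: 44 and 69), and the list's median log2 difference was −1.23 against −0.15 over all. Without replicate 1, 7 were lower. These genes had more allelic reads than most (medians 647.5 and 387.5 against 144 and 90), which helps an interval to fall under the mark. The 13 of them with at least 100 reads in each library had medians of 2.21% and 2.56%. In the 2 RepB-/- libraries the list's medians were 27.6% and 27.0%, also below the 35.5% and 34.1% of the X as a whole. Basement membrane collagens Col4a5 (1.69% and 2.11%) and Col4a6, the actin bundler Pls3 (1.13% and 2.11%) and the glypican Gpc4 (0.985% and 4.93%) were among the low ones.

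RNA-binding and translation genes lay at the other end. Of 15 measured, 7 were retained (Ddx3x, Rbm10, Rpl39, Utp14a, Dkc1, Nono and Rps4x) and none was low, with medians of 14.4% and 18.5%. Against the middle gene 9 were higher and none lower, with a median log2 difference of 1.5. With the summed reads as the centre 7 were higher and 4 lower. Of the 7 retained genes, Rbm10, Rpl39 and Rps4x had 129 shares over 60% in RepB-/- as given above. Leaving out genes over 60% or under 5% in both RepB-/- libraries left 11 of the list, 6 of them higher and 0 lower. The list's median log2 difference was then 1.18, below that of reported escape genes (1.54) and of genes with a Y homologue (1.24).

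Genes reported to escape X inactivation in mice were split. Of 14 measured, 6 were retained (Kdm5c, Ddx3x, Kdm6a, Utp14a, Pbdc1 and 1810030O07Rik) and 7 were higher than the middle gene. Bgn and Shroom4 were low and were the 2 called lower. With the summed reads as the centre 5 were higher and 7 lower. Mid1, a ubiquitin ligase at the chromosome's far end, had 2.13% and 4.72% and was undetermined, and Eif2s3x, a translation initiation factor, had no 129 read but only 20 and 24 CAST reads. Like Pgk1, Eif2s3x was 1 of the 3 measured genes under 5% from 129 in both RepB-/- libraries. RefSeq lists 1 pseudogene of it on chromosome 15, and whether its 129 reads are counted as fully as its CAST reads was not tested. Of 10 genes listed as having a Y homologue 5 were retained, namely Ddx3x, Kdm6a, Uba1, Rps4x and Kdm5c. Whether each, Rps4x among them, has such a homologue in mouse was not checked. Rps4x was also read mostly from 129 in MEF (89.2%), and the cause was not tested. Against the middle gene 6 of the 10 were higher and 1 lower. Leaving out genes by their RepB-/- shares, as for the RNA-binding list, left 8, of which 5 were higher and 1 lower. Tspyl2 was low at 1.67% and 1.73%.

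Of 29 genes usually described as subject to silencing, 3 were retained (Nono, Ogt and Dkc1) and 11 were low (among them Flna, Gpc3, Msn, Lamp2, Gpc4, Idh3g, Rlim, Atp7a, Pgk1 and Tsc22d3), with medians of 6.93% and 8.33%. Against the middle gene 10 were higher and 5 lower, next to 69 and 44 of all 295 genes. Without replicate 1 these were 5 and 3, without pairing the alleles 9 and 3, and with the summed reads as the centre 3 and 17. Among 24 chromatin and transcription regulators 4 were retained (Kdm5c, Kdm6a, Ogt and Rbbp7) and 5 low (among them Hdac6, Bcor, Elf4 and Phf8), shares near those of all measured X genes. The host cell factor Hcfc1 was undetermined at 8.17% and 8.88%.

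By retained and low counts alone, the next 3 lists were also near the shares of all measured X genes. Of 17 mitochondrial and metabolic genes 3 were retained and 4 low. Against the middle gene, though, 8 of the 17 were higher and 2 lower (all 295 genes: 69 and 44). Their list medians were 8.05% and 10.4%. With the summed reads as the centre 2 were higher and 8 lower. Idh3g, a citric acid cycle subunit, was low at 8.05% and 7.78%. Pdha1, of pyruvate dehydrogenase, stood at 6.93% and 11.7%. Of 13 genes on the ubiquitin pathway list 2 were retained, Uba1 and Kdm5c, and 4 were low. Kdm5c is a histone demethylase and not a ubiquitin pathway gene, so the list is not strictly of that pathway. It stays in the counts of the list. Against the middle gene 6 of the 13 were higher and 1 lower, and with the summed reads as the centre 1 and 8. Of 13 germline, placental and reproductive homeobox genes 1 was retained (Dusp9) and 3 were low (Maged1, Maged2 and Magee1). Against the middle gene 3 of these 13 were higher and 2 lower, and with the summed reads as the centre 0 and 10. Within the X inactivation centre Rlim, the ubiquitin ligase that promotes Xist expression, was low (6.45% and 7.14%). Ftx, a non-coding RNA upstream of Xist, had 16.1% and 13.6% from only 56 and 44 allelic reads and was undetermined.

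**Figure D3:**
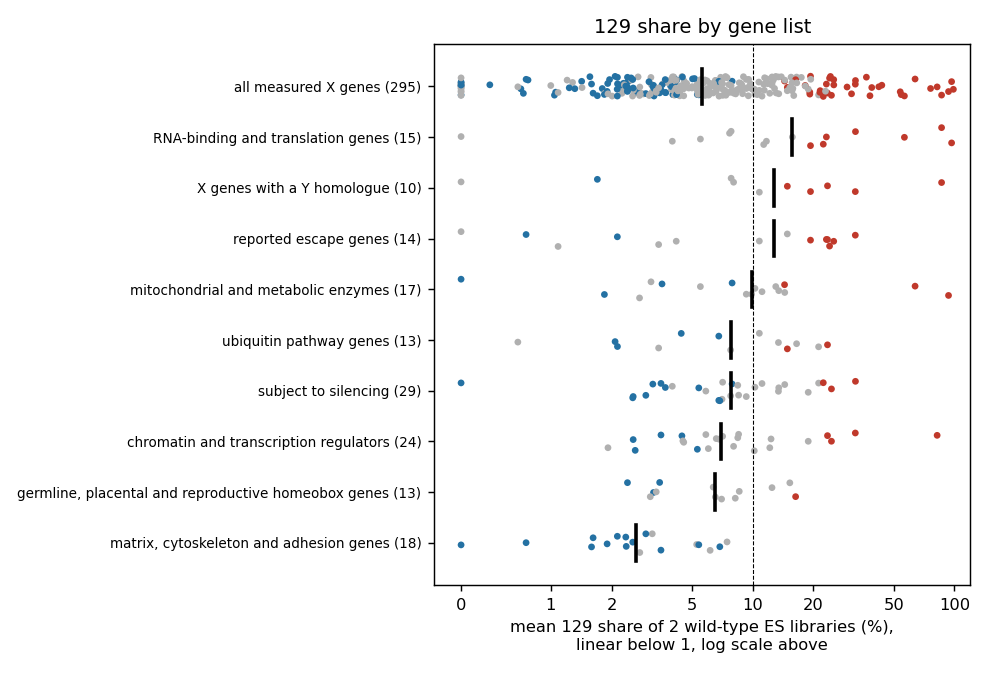
Mean share of reads from 129 over the 2 wild-type ES libraries (%, x axis, linear below 1 and logarithmic above) by gene list (y axis, with the number of measured genes, Xist left out). Points are genes coloured red where retained, blue where low and grey otherwise, black bars are list medians, and the dashed line marks 10%. Matrix, cytoskeleton and adhesion genes all lie left of the mark, and the RNA-binding and translation list has the median farthest right.

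Along the chromosome, retained and low genes were interspersed. Positions are those of the 1 exon the tables list per gene, on mouse build mm9, where Xist is listed at base 100655712. Over windows of 20 Mb the mean of the libraries' medians ranged from 3.25% ± 0.953 (SD, n = 2; 37 genes) at 120 to 140 Mb to 9.11% ± 1.12 (20 genes) at 20 to 40 Mb. The first window, 0 to 20 Mb, was at 8.49% ± 1.27 (39 genes) and the one that holds Xist, 100 to 120 Mb, at 6.69% ± 0.885 (22 genes). The other 5 windows lay between 5.06% and 5.69%. Low genes made up 40.5% of the window of lowest share and 10% of that of highest share. The 20 to 40 Mb window held 5 retained genes (Ndufb11, Rbm10, Uba1, Slc25a5 and Rpl39), of which 2 were not over 60% in RepB-/-. No test between windows was made.

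Taking measured genes in order, 28 of the 38 retained genes had no retained neighbour (73.7%, beside 76.4% of all 296 genes), and 16 had a low gene next to them (42.1% beside 44.6%). These shares are near those of all measured genes. There were 4 runs of adjacent retained genes with 10 genes in all. Ndufb11, Rbm10 and Uba1 began within 43.0 kb, Atp6ap2 and 1810030O07Rik within 67.1 kb, Slc25a5 and Rpl39 within 287 kb, and Wbp5, Ngfrap1 and Tceal3 within 421 kb. Counts do not record strand handling, so that reads of overlapping neighbours such as Ndufb11 and Rbm10 cannot be fully separated. Sharp changes were seen over short distances. Plp2 lay 10.7 kb from low Prickle3, Cox7b 11.5 kb from low Atp7a, Dkc1 13.9 kb from low Mpp1 and Kdm5c 89.0 kb from low Iqsec2.

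**Figure D4:**
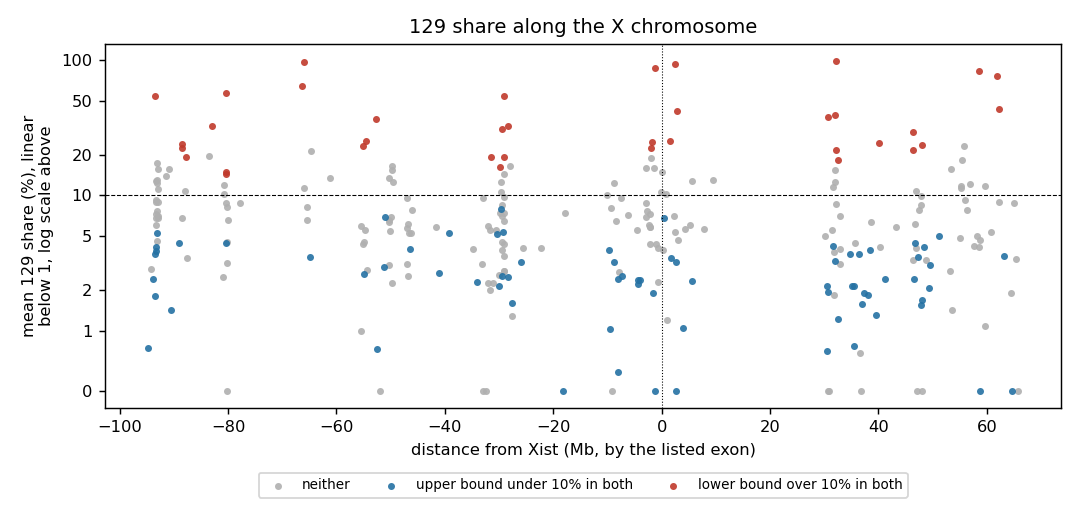
Mean share of reads from 129 over the 2 wild-type ES libraries (%, y axis, linear below 1 and logarithmic above) against distance from Xist (Mb, x axis) for 295 measured X genes. Red points are retained genes, blue points low genes and grey points the others, with the 10% mark dashed and Xist dotted. Red and blue points occur side by side along the whole chromosome, and the densest group of low points lies 30 to 40 Mb to the right of Xist.

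The wild-type MEF library showed the X in a second cell type, with no replicate and no test. Xist had 99.7% of 1466 reads from 129. The median share over 197 X genes with at least 20 allelic reads was 0%, with 99 genes (50.3%) at 0. Both ES libraries were above MEF for 150 of the 197 genes (76.1%) and both below for 9 (4.57%), against 35.5% and 38.7% of 313 genes on chromosome 13. A gene at 0 in MEF cannot be lower in ES, and no chromosome 13 gene was at 0. Measured X genes had a median of 49.5 allelic reads in MEF, against 147 and 91 in ES. Summed reads of the X without Xist gave a 129 share of 3.61% in MEF. Shares in ES and MEF had a Spearman correlation of 0.61 over the 197 genes. The ES cultures also held cardiac and endoderm cells, whose markers were nearly 0 in MEF (summed 0.660 and 0.495 CPM). A gene's level in MEF against ES had a Spearman correlation of 0.04 with its ES share.

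Of the 37 retained genes 26 were measured in MEF. The lower bound was over 10% for 16, among them 8 that were not over 60% in RepB-/-: Kdm5c (31.7%), Ddx3x (20.6%), Nono (19.3%), Naa10 (39.0%), Dkc1 (24.3%), Wbp5 (20.5%), Apex2 (19.8%) and Armcx3 (39.1%). Only Cxx1a among genes not retained in ES cells also met that bound (18.6% of 70 reads, with 16.5% in both ES libraries). For 3 retained genes the MEF upper bound was under 10%. Ogt had 0 of 140 reads from 129, which allows up to 2.14%, Uba1 0.644% of 1552 and Ndufb11 6.76% of 444. Of the low ES genes, 52 of the 53 measured in MEF had an upper bound under 10% there, beside 76 of 118 undetermined ones. This bound depends on depth, and low genes were the more deeply read in ES cells. The median MEF share was 0% in both classes, with 30 of the 53 and 68 of the 118 at 0. Usp9x, at 9.39% and 12.2% in ES cells, had 0 of 206 reads from 129 in MEF, which allows up to 1.46%.

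**Figure D5:**
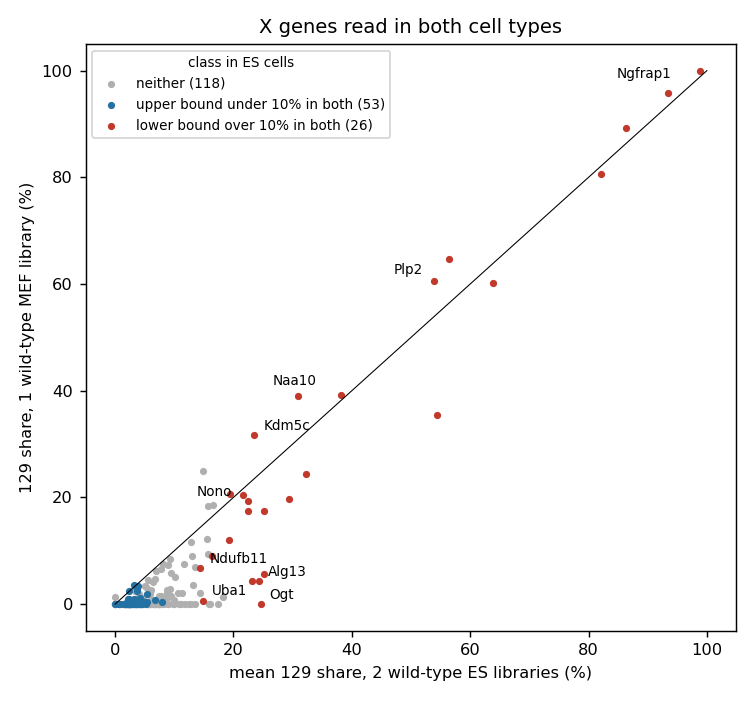
Share of reads from 129 (%) in the wild-type MEF library (y axis) against the mean of the 2 wild-type ES libraries (x axis) for 197 X genes with at least 20 allelic reads in each. Colours give the class in ES cells (26 retained genes red, 53 low genes blue, 118 others grey), and the line marks equal shares. Most points lie below the line, and Ogt and Uba1 are retained genes near 0 in MEF.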

How the data were processed

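The deposited tables give the authors' whole-number counts per gene for all reads, reads given to 129 (headed mus) and reads given to CAST (headed cas), taken as such from the strains in the labels. They are not normalized, have the layout of featureCounts, per the file headers, and use mm9 as the mouse build. The submitters' processing notes name Novoalign, SAMtools, bedtools and TopHat without roles. How strand and multiply mapping reads were counted is not given in the sources used here.

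A 129 share divides the 129 count by all allelic counts, for genes with at least 20 in each wild-type library; intervals are exact 95% Clopper-Pearson (scipy 1.17.1), and 3 counts of the total limit a share of 0. Without molecular identifiers both cover counting error only. Allele counts of all 6 ES libraries were fitted together in edgeR 4.0.16 (R 4.3.3; quasi-likelihood F-test, library as a block, an allele term per genotype, biological coefficient of variation 10.2%), with p-values adjusted over all 10382 genes, at 0.05. The second test offsets each 129 count by its chromosome's median log ratio (pseudocount 0.5). The pairing of the alleles comes from the library itself. The scripts were tested on simulated data.

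Members, lists and tests were chosen with earlier results of these data known. Named by rule were Xist, all retained genes (the 12 of highest share with at least 100 allelic reads in each library in full), the 12 low genes with the most reads, 6 genes without 129 reads, up to 4 genes per list by reads and 3 on each side of the mark; other genes were picked after their values were seen. Alternatives were other minimum reads, marks, intervals, scalings, centres, libraries and DESeq2 1.42.0. A few genes that met the rule are not reported here and stay in the counts.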

Additional observations from a re-analysis of the deposited data

How the results depend on the processing

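The 281 lower and 8 higher X genes of the allele test stayed within 1.5 times under every alternative run for it. For the test against the chromosome's middle gene, leaving out 1 wild-type library gave 45 to 57 higher genes and 27 to 33 lower ones, a minimum of 1 allelic read gave 76 lower genes, and centring at summed reads gave 31 higher and 196 lower. Under that centre, which includes the reads of Xist, Ndufb11 turned to −0.045 on the log2 scale. Without the replicate block, that is without pairing the alleles of a library, 69 genes were higher (64 shared with the paired fit) and 45 lower (40 shared). Without it the genes subject to silencing that were lower went from 5 to 3. DESeq2 called 60 higher and 37 lower. With the mark at 5%, 66 genes were retained and 17 low, and with the mark at 20%, 14 and 202. Leaving out 1 library gave 46 retained genes each time, 87 to 146 low genes and 23 to 33 genes without 129 reads, which numbered 3 at a minimum of 50 reads. The X share pooled over reads was 9.97% against the 5.49% median. Leaving out genes over 60% or under 5% in RepB-/-, an alternative chosen after seeing the data, gave 27 retained, 73 low and 13 genes without 129 reads, and 61 higher and 41 lower. Depth limits the genes without 129 reads, which need at least 36 allelic reads to be called low.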
